A study of Mus musculus with 12 samples.

Results

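Cholesterol metabolism in the liver was described through 31 genes: 20 enzymes that carry acetoacetyl-CoA to cholesterol, and 11 genes for the uptake, movement inside the cell, esterification and efflux of sterols. The genes were chosen by function from their symbols in the deposited tables, which list 55487 genes. All 31 were found and all 31 had enough counts to be tested, among 15862 tested genes. The livers came from 12 male mice aged 16 to 18 months, in 4 groups of 3 animals. The first was overnight-fasted hepatocyte-specific Foxo3 knockout with the genotype Foxo3 flox/flox and Alb-cre positive and the second was fed knockout. The others were the overnight-fasted and the fed Foxo3 floxed control (Cre-negative). Both genotypes thus carry floxed Foxo3, and the labels give an ad libitum diet for fed and fasted mice alike. The albumin promoter drives Cre in hepatocytes, so cells of these whole-liver samples without Cre keep the gene.

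Cholesterol is built from acetyl-CoA through mevalonate, isoprenoids, squalene and lanosterol. The transcription factor encoded by Srebf2 raises the transcription of most of these enzymes when sterols in the endoplasmic reticulum are low, and the INSIG proteins hold it back when sterols are high. The liver also takes cholesterol up from lipoproteins, stores it as esters, passes it to apolipoprotein A-I through ABCA1 and secretes it into bile through the ABCG5/ABCG8 pair.

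Libraries held 17520058 to 22414976 counts. Foxo3 was at 46.6, 53.6 and 53.4 CPM in fasted and 59.4, 58.8 and 62.2 CPM in fed knockout livers, and at 44.3, 39.9 and 38.1 CPM in fasted and 45.5, 44.5 and 50.4 CPM in fed control livers (CPM, counts scaled to a common library size with edgeR's TMM factors). It was thus not lower in the libraries labelled knockout. Which exons are floxed is not in the labels, and counts over the whole gene include any exons that stay after Cre, so they give no check of the genotype. "Knockout" below means the libraries labelled so. Hepatocyte markers summed to 66200 to 113000 TPM (a unit per transcript length) in all 12 libraries. Fed control replicate 3 stood apart. Its 7 markers of infiltrating macrophages summed to 256 TPM, where the highest sum was 58.5 in fasted knockout, 74.9 in fed knockout and 58.3 TPM in fasted control livers. Its stellate cell markers summed to 266 TPM, and its cholangiocyte list, which shares Spp1 with the macrophage list, to 239 TPM. Spp1 alone was at 232.5 TPM there, most of both sums that hold it. Of the other markers in these lists, Ccr2, Cx3cr1, Trem2, Gpnmb and Krt7 were also highest in this library. Ly6c2, Itgam, Krt19, Epcam and Sox9 were not. In whole tissue, fewer cells of a type and less RNA per cell cannot be told apart. No label names a batch, so a cohort or a day cannot be told apart from genotype or feeding.

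The members spanned a wide range of levels. Per length, Sc5d, the lathosterol desaturase, had the highest mean over the 12 libraries at 279 TPM (range 128 to 434), followed by Ebp, a sterol isomerase, at 179 TPM (150 to 223) and Lrp1, an endocytic receptor of lipoprotein remnants, at 155 TPM (106 to 205). These ranges overlapped. Hmgcs1, which makes HMG-CoA, averaged 146 TPM and the biliary transporters Abcg5 and Abcg8 96.9 and 91.3 TPM. At the low end were Ggps1, the geranylgeranyl diphosphate synthase, at 5.09 TPM, Fdps, the farnesyl diphosphate synthase, at 3.31 TPM and Soat1, an enzyme that esterifies cholesterol, at 1.75 TPM. Soat2, the form known from hepatocytes and intestine, averaged 48.6 TPM. Fdps rested on only 26 to 294 counts per library; it has processed pseudogenes, and how reads that match several places were counted is not given in the sources used here, so its values are uncertain. Abcg5 overlaps Abcg8, Fdft1 overlaps Ctsb and Hmgcs1 overlaps the antisense gene Gm48342, each on opposite strands; the strand setting of the counting is not given either.

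**Figure D1:**
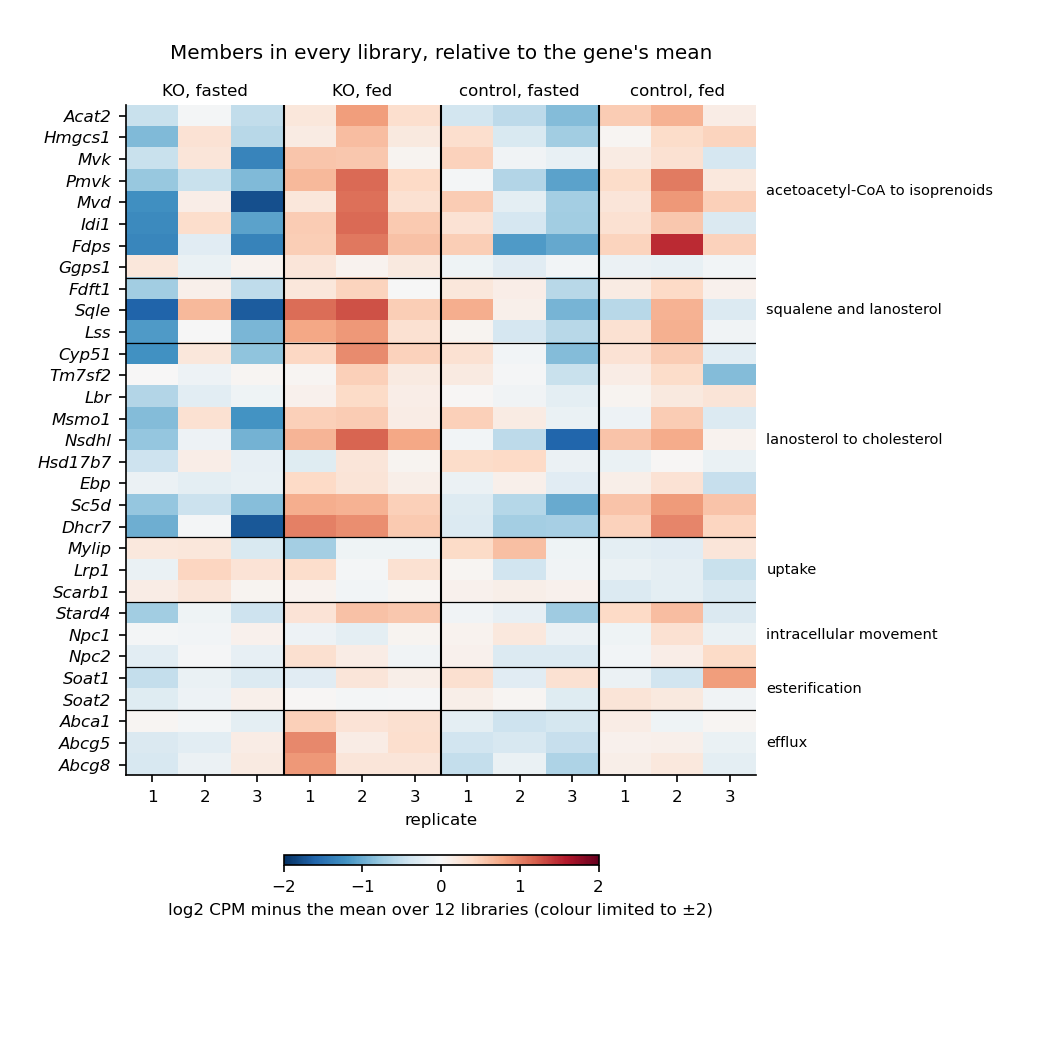
Each cell gives the log2 deviation of a member in a library from that gene's mean over the 12 libraries, with genes in rows by role and libraries in columns by group. All 3 fed knockout libraries lie above the mean for 19 or 20 of the 20 synthesis enzymes. Fasted knockout replicates 1, 2 and 3 lie above it for 2, 9 and 2. Fed control replicates 1, 2 and 3 lie above it for 16, 19 and 10, and fasted control replicates for 13, 5 and 0. Over all tested genes, 48% to 51.3% lie above their mean in each library.

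Fasted livers held less RNA of several synthesis enzymes and of the efflux transporters than fed livers. Averaged over both genotypes, 12 of the 31 members fell and 1 rose after the fast (edgeR's quasi-likelihood test with Benjamini-Hochberg adjustment, adjusted p under 0.05). Over all tested genes, 9.07% passed the same test, 4.52% lower and 4.55% higher. Without adjustment 21 of 31 had a p under 0.05, where 23.6% of all tested genes did. The 12 that fell were 8 of the 20 synthesis enzymes (Acat2, Pmvk, Fdps, Lss, Lbr, Nsdhl, Sc5d and Dhcr7), the intracellular sterol carrier Stard4, and all 3 efflux transporters. The 1 that rose was Scarb1, which encodes the HDL receptor SR-BI. The log2 fold change was below 0 in 19 of the 20 synthesis enzymes, with a median of -0.71, against 51.6% of all tested genes and a median of -0.009. The enzymes varied together between libraries, so counts over them are not of independent observations. For 6 enzymes every fasted library lay below every fed one across both genotypes, as for 2.34% of all tested genes.

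In the first stretch, from acetoacetyl-CoA to the isoprenoids, 3 of 8 enzymes fell. Acat2 (chromosome 17, positions 12942890 to 12960747, mm10), the cytosolic thiolase that makes acetoacetyl-CoA, was at 56.8, 75.3 and 55.0 CPM in fasted against 91.3, 139 and 97.9 CPM in fed knockout livers. It was at 60.1, 53.8 and 42.5 CPM in fasted against 111, 127 and 86.2 CPM in fed control livers. Every fasted library lay below every fed one, with a log2 fold change of -0.93 (SE 0.14, adjusted p = 0.0016). Its paralog and neighbour Acat3, to which reads of a similar sequence could go, had a log2 fold change of 0.06 (SE 0.08, adjusted p = 0.69).

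Pmvk (chromosome 3, 89454541 to 89469013), which phosphorylates phosphomevalonate, was at 18.0, 22.5 and 16.5 CPM in fasted against 48.8, 68.4 and 41.0 CPM in fed knockout livers. In control livers it was at 30.1, 20.4 and 14.5 CPM after the fast and 40.0, 64.0 and 35.7 CPM in the fed state. All 6 fasted libraries were below all 6 fed ones, and the log2 fold change was -1.29 (SE 0.22, adjusted p = 0.0050). Fdps was at 1.55, 3.82 and 1.5 CPM in fasted against 6.64, 10.0 and 7.05 CPM in fed knockout livers. It was at 6.62, 1.81 and 1.98 CPM in fasted against 6.41, 13.8 and 6.45 CPM in fed control livers. Fasted control replicate 1 overlapped the fed control libraries, and the log2 fold change was -1.56 (SE 0.39, adjusted p = 0.031). Hmgcs1, Mvk, Mvd, Idi1 and Ggps1 did not pass, with log2 fold changes between -0.99 for Mvd, the diphosphomevalonate decarboxylase, and -0.07 for Ggps1.

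Between isoprenoids and lanosterol, 1 of 3 enzymes fell. Lss, the cyclase that closes the sterol rings to give lanosterol, was at 25.5, 56.3 and 29.6 CPM in fasted against 97.1, 104 and 70.1 CPM in fed knockout livers. It was at 58.5, 44.7 and 38.5 CPM in fasted against 70.1, 92.4 and 53.5 CPM in fed control livers. The groups did not overlap in knockout livers and did in control livers, and the log2 fold change was -0.95 (SE 0.22, adjusted p = 0.025). Fdft1, the squalene synthase, and Sqle, the squalene epoxidase, did not pass, with log2 fold changes of -0.40 (SE 0.16, adjusted p = 0.15) and -0.70 (SE 0.49, adjusted p = 0.44).

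From lanosterol to cholesterol, 4 of 9 enzymes fell. Sc5d (chromosome 9, 42251595 to 42264256) was at 289, 367 and 274 CPM in fasted against 815, 801 and 688 CPM in fed knockout livers, and at 415, 332 and 245 CPM in fasted against 729, 887 and 732 CPM in fed control livers. The highest fasted library was thus far below the lowest fed one. The log2 fold change was -1.28 (SE 0.13, adjusted p = 1.2e-04). Dhcr7 (chromosome 7, 143823145 to 143848410), which reduces 7-dehydrocholesterol to cholesterol, was at 35.1, 67.5 and 21.1 CPM in fasted against 140, 133 and 99.5 CPM in fed knockout livers. It was at 57.0, 43.3 and 43.8 CPM in fasted against 95.3, 137 and 93.7 CPM in fed control livers. Again no fasted library reached a fed one, and the log2 fold change was -1.38 (SE 0.25, adjusted p = 0.0073).

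Nsdhl (chromosome X, 72918557 to 72958514), a dehydrogenase that helps remove the C4 methyl groups, was at 27.7, 44.5 and 24.5 CPM in fasted against 76.7, 107 and 81.9 CPM in fed knockout livers. It was at 46.0, 33.0 and 15.5 CPM in fasted against 70.9, 80.4 and 50.03 CPM in fed control livers. The 6 fasted libraries lay below the 6 fed ones, with a log2 fold change of -1.28 (SE 0.26, adjusted p = 0.014). Lbr, a sterol C14 reductase that is also a receptor of the nuclear lamina, was at 7.78, 10.2 and 11.1 CPM in fasted against 12.6, 15.7 and 13.1 CPM in fed knockout livers. It was at 12.1, 11.3 and 10.3 CPM in fasted against 12.4, 13.7 and 14.3 CPM in fed control livers. Every fasted library was again below every fed one, by little in control livers, and the log2 fold change was -0.38 (SE 0.10, adjusted p = 0.035). Cyp51, Tm7sf2, Msmo1, Hsd17b7 and Ebp did not pass, with log2 fold changes between -0.72 for Cyp51, the lanosterol 14-alpha demethylase, and 0.08 for Hsd17b7, a 3-ketosteroid reductase.

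**Figure D2:**
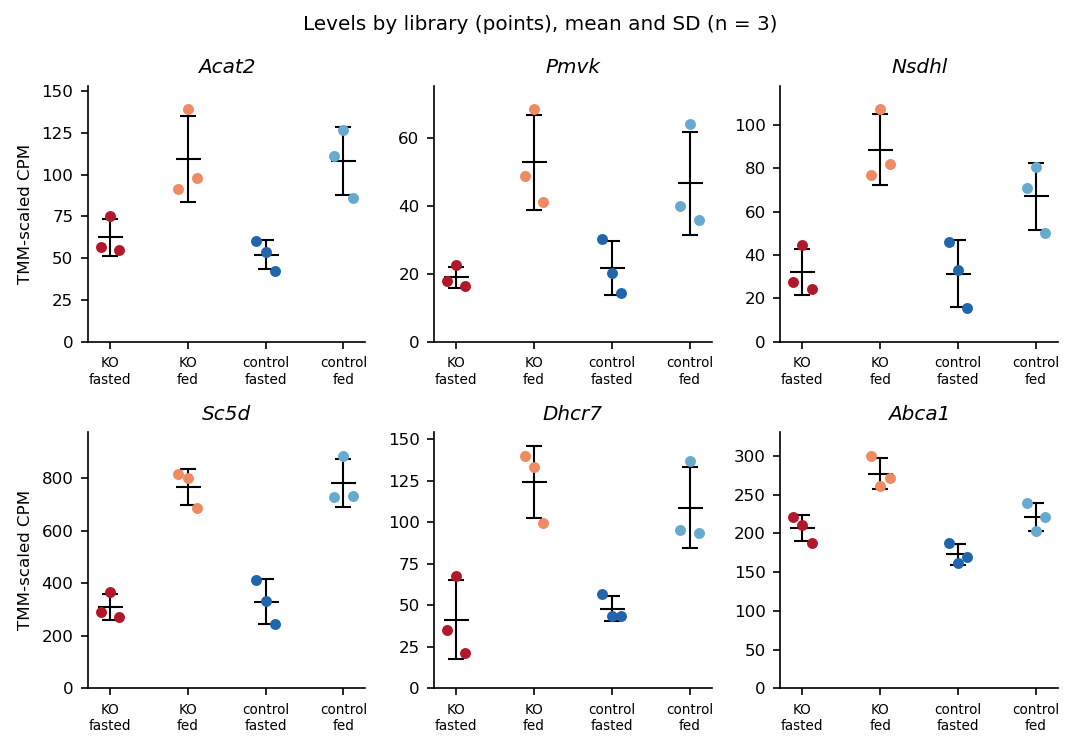
TMM-scaled CPM of the 6 members that passed the test of fasting averaged over both genotypes in every setting run, with 1 point per library and bars for the group mean and SD (n = 3), fasted left of fed within each genotype. Sc5d, Pmvk, Acat2, Nsdhl and Dhcr7 show no overlap between fasted and fed libraries.

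Of the 11 genes that handle sterols, the transporters and the carrier moved down and the HDL receptor moved up. Abca1 (chromosome 4, 53030787 to 53159895) was at 221, 211 and 188 CPM in fasted against 300, 260 and 271 CPM in fed knockout livers, and at 188, 162 and 169 CPM in fasted against 239, 203 and 221 CPM in fed control livers. Within each genotype the fasted and fed libraries did not overlap, and the log2 fold change was -0.39 (SE 0.08, adjusted p = 0.0081). Abcg5 was at 84.4, 89.1 and 114 CPM in fasted against 201, 114 and 130 CPM in fed knockout livers. It was at 78.9, 82.2 and 74.7 CPM in fasted against 110, 111 and 93.9 CPM in fed control livers. Its fasted libraries were below the fed ones in both genotypes, with 113.8 CPM as the highest fasted and 114.0 CPM as the lowest fed value in knockout livers, and the log2 fold change was -0.52 (SE 0.13, adjusted p = 0.025).

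Abcg8, the partner of Abcg5 in bile secretion, was at 108, 124 and 152 CPM in fasted against 246, 160 and 159 CPM in fed knockout livers. It was at 96.3, 123 and 87.6 CPM in fasted against 145, 157 and 118 CPM in fed control livers. The control groups overlapped and the knockout groups did not, with a log2 fold change of -0.51 (SE 0.14, adjusted p = 0.039). Stard4 was at 88.2, 135 and 107 CPM in fasted against 172, 214 and 209 CPM in fed knockout livers, and at 136, 128 and 87.4 CPM in fasted against 189, 220 and 117 CPM in fed control livers. Fed control replicate 3 was below fasted control replicates 1 and 2, and the log2 fold change was -0.71 (SE 0.17, adjusted p = 0.020).

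Scarb1 (chromosome 5, 125277087 to 125341094) was at 151, 161 and 141 CPM in fasted against 144, 132 and 140 CPM in fed knockout livers. It was at 145, 148 and 144 CPM in fasted against 113, 120 and 110 CPM in fed control livers. The control groups were well apart and the knockout groups overlapped, with a log2 fold change over both of 0.24 (SE 0.06, adjusted p = 0.032). Lrp1, Mylip, Npc1, Npc2, Soat1 and Soat2 did not pass, with log2 fold changes between -0.29 for Npc2, a lysosomal sterol carrier, and 0.35 for Mylip, a ubiquitin ligase that targets lipoprotein receptors. Soat1 at 12.1 CPM and Npc2 at 98.6 CPM were highest in fed control replicate 3, whose macrophage sum was high mostly through Spp1. The part of macrophages in these levels was not tested.

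Acat2, Pmvk, Nsdhl, Sc5d, Dhcr7 and Abca1 passed in all 19 alternative settings and left-out libraries, and the other 7 calls were each lost without single libraries. The adjusted p of Stard4 was 0.053 to 0.054 without fasted knockout replicate 3 or fed knockout replicate 2 or 3. That of Abcg5 was 0.050 to 0.061 without fasted knockout replicate 1 or 2, fasted control replicate 2 or 3, or fed control replicate 1 or 2. That of Abcg8 was 0.075 to 0.088 without fasted knockout replicate 1 or 2, fed knockout replicate 1, fasted control replicate 1 or 3, or fed control replicate 1 or 2. Lss stood at 0.056 to 0.065 without fasted knockout replicate 3, fed knockout replicate 1 or 2, fasted control replicate 2 or 3, or fed control replicate 2. Fdps stood at 0.053 to 0.078 without fasted knockout replicate 1 or 3, any fed knockout replicate, fasted control replicate 2 or 3, or fed control replicate 2. Lbr stood at 0.055 to 0.097 without fasted knockout replicate 1 or 2, fed knockout replicate 2 or 3, fasted control replicate 2 or 3, or fed control replicate 2 or 3. Scarb1 stood at 0.052 to 0.092 without fasted knockout replicate 1 or 2, any fed knockout replicate, fasted control replicate 1 or 2, or fed control replicate 1 or 3. With fed control replicate 3 left out, 12 members passed averaged over genotypes, 4 in knockout livers and 2 in control livers.

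In each genotype alone fewer members passed. In knockout livers 3 fell (Sc5d, Pmvk and Dhcr7) and 0 rose, where 2.48% of all tested genes passed, 1.12% lower and 1.36% higher. Without adjustment 19 of 31 had a p under 0.05 there, where 14.6% of all tested genes did. The log2 fold changes of Sc5d, Pmvk and Dhcr7 were -1.31 (SE 0.19, adjusted p = 0.0041), -1.47 (SE 0.31, adjusted p = 0.036) and -1.59 (SE 0.36, adjusted p = 0.047). In control livers 2 fell and 1 rose, where 4.14% of all tested genes passed, 2.09% lower and 2.05% higher. Without adjustment 12 of 31 had a p under 0.05, where 19.4% of all tested genes did. The 3 that passed the adjusted test were Sc5d at -1.24 (SE 0.19, adjusted p = 0.0037), Acat2 at -1.05 (SE 0.20, adjusted p = 0.013) and Scarb1 at 0.35 (SE 0.09, adjusted p = 0.044). Sc5d passed in both genotypes in every setting run. In knockout livers the adjusted p of Pmvk was 0.052 to 0.136 without any 1 replicate of either knockout group, fasted control replicate 2 or fed control replicate 1. That of Dhcr7 was 0.057 to 0.175 without any 1 library other than fasted knockout replicate 2. In control livers that of Acat2 was 0.051 to 0.062 without fasted control replicate 2 or 3 or fed control replicate 2. That of Scarb1 was 0.057 to 0.126 without any 1 library other than fasted knockout replicate 3.

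All 20 synthesis enzymes had a log2 fold change below 0 in knockout livers, with a median of -0.96, and 16 of 20 did in control livers, with a median of -0.38. Over all tested genes, 50.8% and 50.5% were below 0, with medians of -0.006 and -0.003. As above, the 20 enzymes are not independent observations. The fasted libraries lay wholly below the fed ones for 13 of 20 enzymes in knockout livers and 6 of 20 in control livers, against 11.8% and 10.9% of all tested genes. Single libraries moved these medians. In knockout livers the median was -1.43 without fasted replicate 2 and -0.78 without fasted replicate 1. It was -0.84 without fasted replicate 3 and -0.83 without fed replicate 2. In control livers it was -0.69 without fasted replicate 1, -0.21 without fasted replicate 3 and -0.24 without fed replicate 2. Without fed control replicate 3 it was -0.45, with 18 of 20 enzymes below 0.

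**Figure D3:**
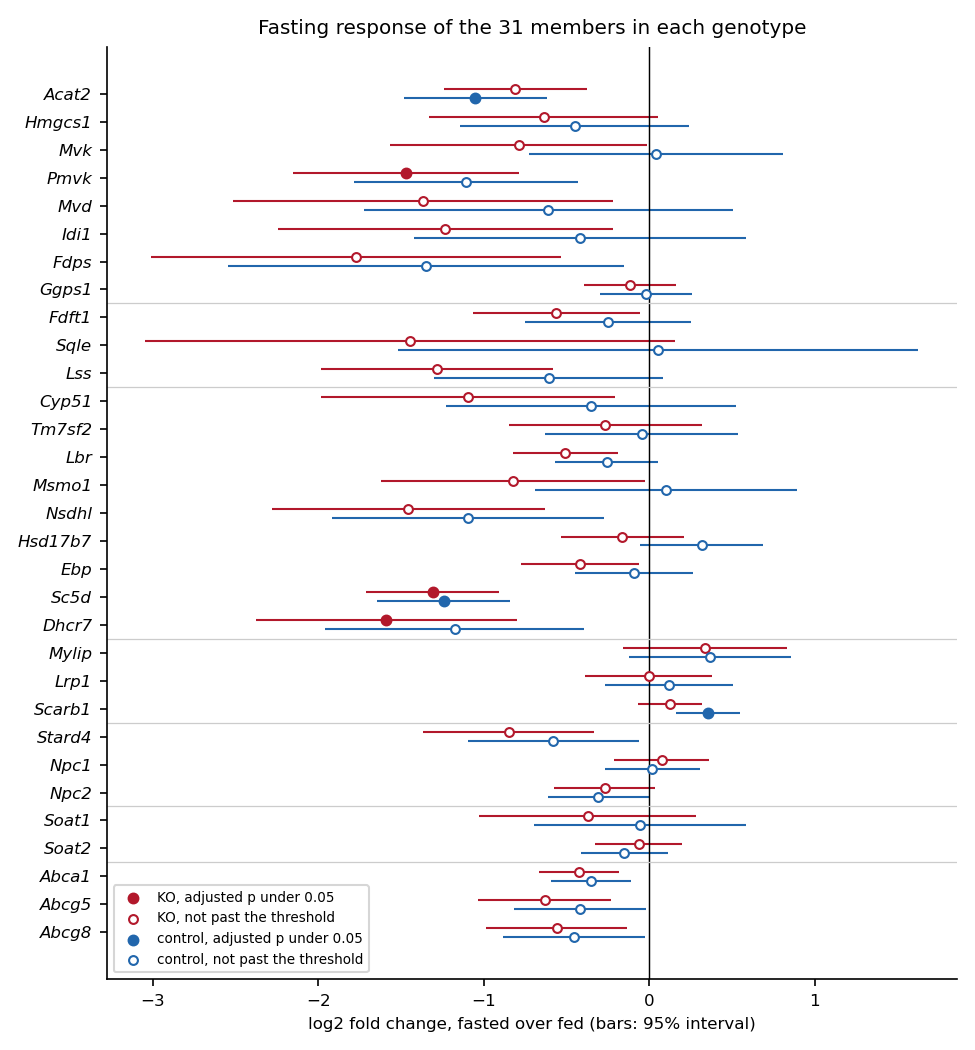
Log2 fold change of fasted over fed livers for each member, in knockout and in control livers, with bars for the 95% interval and filled points for an adjusted p under 0.05. All 20 synthesis enzymes lie below 0 in knockout livers and 16 of 20 in control livers, with wide intervals for Sqle, Fdps and Mvd.

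The difference between the genotypes in the response to fasting was tested as the interaction. By edgeR's quasi-likelihood test 0 of 31 members passed, 0 had an unadjusted p under 0.05, and 0 passed by DESeq2 or limma. Over all tested genes 0.0063% passed the adjusted test and 7.19% had an unadjusted p under 0.05. The estimate was below 0 in 19 of 20 synthesis enzymes, with a median of -0.39, and in 50.7% of all tested genes. The enzymes varied together between libraries, so these 20 estimates are not independent and their count is no test of a difference. Single libraries moved that median both ways. It was -0.22, with 15 of 20 below 0, without fasted control replicate 1, -0.65 without fasted knockout replicate 2 and -0.605 without fasted control replicate 3. Without fed control replicate 3, the library that stood apart in its markers, it was -0.27, with 18 of 20 below 0. The 3 members with the smallest p were Hsd17b7, Scarb1 and Msmo1. Hsd17b7 was at 63.5, 93.4 and 75.8 CPM in fasted against 71.5, 100.4 and 88.5 CPM in fed knockout livers, and at 110, 113 and 78.3 CPM in fasted against 77.8, 86.6 and 77.3 CPM in fed control livers. Fasted and fed libraries overlapped in both genotypes, with fasted control replicates 1 and 2 above all fed ones. Hsd17b7 had an interaction of -0.48 (95% interval -1.001 to 0.045, adjusted p = 0.72), and Scarb1 one of -0.23 (-0.50 to 0.05, adjusted p = 0.75).

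Msmo1, the C4 methylsterol oxidase, was at 84.1, 189 and 67.03 CPM in fasted against 214, 219 and 170 CPM in fed knockout livers, and at 213, 172 and 139 CPM in fasted against 143, 219 and 127 CPM in fed control livers. Fasted knockout replicates 1 and 3 were below all other libraries, while the control groups overlapped. Its interaction was -0.93 (95% interval -2.05 to 0.20, adjusted p = 0.76), and -1.51 (adjusted p = 0.36) without fasted knockout replicate 2, the highest library of its group. Over all alternatives run it lay between -1.51 and -0.66. Sqle, singled out after its values were seen, was at 15.2, 74.5 and 14.6 CPM in fasted and 103, 115 and 66.7 CPM in fed knockout livers. It was at 78.8, 50.8 and 24.5 CPM in fasted and 32.2, 77.0 and 39.0 CPM in fed control livers. Its interaction of -1.5 had an interval from -3.73 to 0.73, so these data bound the difference only loosely.

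The synthesis enzymes varied more between animals of a group than most genes. The median coefficient of variation over the 20 enzymes was 38.8% in fasted knockout, 18.2% in fed knockout, 25.4% in fasted control and 22.9% in fed control livers. Over 10101 genes with a mean of at least 5 CPM it was 10.2%, 8.4%, 11% and 11.1% in the same groups. The 11 handling genes had medians of 13.0%, 13.3%, 14.6% and 14.2%. Of the 20 enzymes, 18, 19, 18 and 17 lay above that median in these groups. For most enzymes the same library was the highest of its group. Fasted knockout replicate 2 was the highest of its group for 16 of 20 enzymes, as it was for 31.1% of all tested genes. Fasted control replicate 1 was the highest for 17 of 20 (29.9% of all genes) and fasted control replicate 3 the lowest for 17 of 20 (35.9%). In fed livers, knockout replicate 2 was the highest for 15 of 20 (33.5%) and control replicate 2 for 17 of 20 (30.7%). Sqle spanned a factor of 5.11 within the fasted knockout group and Mvd a factor of 4.05.

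**Figure D4:**
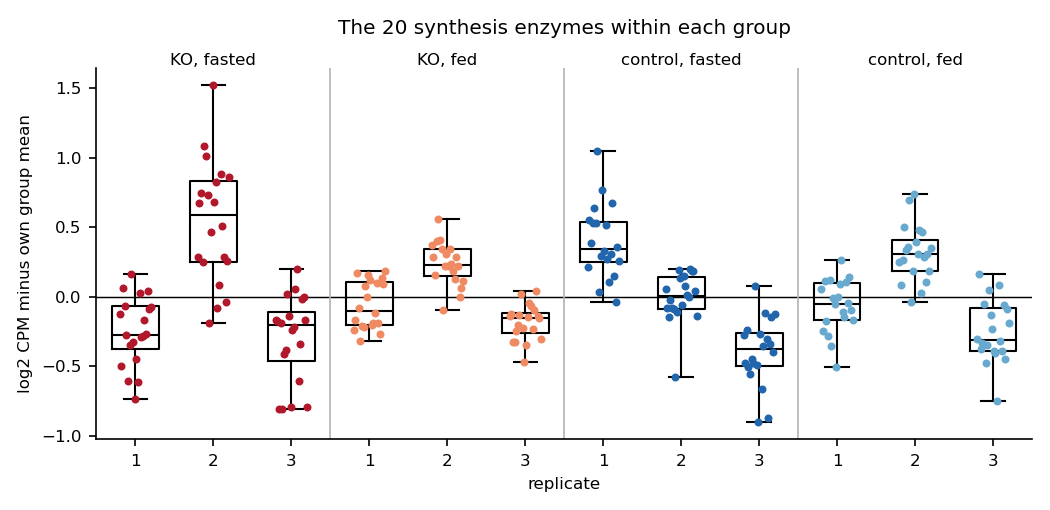
Log2 deviation of each of the 20 synthesis enzymes from its group mean (points), with 1 box per library from the lower to the upper quartile, a line at the median and whiskers to the extremes. Fasted knockout replicate 2 and fasted control replicate 1 sit above their group mean for most enzymes, and fasted control replicate 3 sits below it.

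Sequences of the start regions are shown for 3 synthesis enzymes, to set the members' shared promoter letters beside their values. RefSeq promoters of build GRCm38.p6, from 250 bases before to 50 after the start, were matched for 24 of the 31 members. They were searched on both strands for the core of the sterol regulatory element (TCACNCCAC, in reverse GTGGNGTGA), the NF-Y box (CCAAT, in reverse ATTGG) and a forkhead core (GTAAACA, in reverse TGTTTAC). Capitals mark matches to the first and second of these. Hmgcs1 is shown for the sterol element, Nsdhl as an enzyme with 4 NF-Y boxes, and Sc5d as the enzyme with the smallest p after fasting. Hmgcs1 also had 4 NF-Y boxes, and Mvk, which did not pass after fasting, had 5. They lie at chr13:119690101-119690400 (plus strand), chrX:72918271-72918570 (plus strand) and chr9:42264251-42264550 (minus strand).
Hmgcs1: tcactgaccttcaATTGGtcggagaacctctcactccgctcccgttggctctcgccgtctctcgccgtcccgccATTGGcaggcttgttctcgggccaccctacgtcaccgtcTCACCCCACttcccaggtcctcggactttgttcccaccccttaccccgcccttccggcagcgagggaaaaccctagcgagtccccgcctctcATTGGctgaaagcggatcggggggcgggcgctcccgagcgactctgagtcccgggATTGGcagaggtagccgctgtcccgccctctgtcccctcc
Nsdhl: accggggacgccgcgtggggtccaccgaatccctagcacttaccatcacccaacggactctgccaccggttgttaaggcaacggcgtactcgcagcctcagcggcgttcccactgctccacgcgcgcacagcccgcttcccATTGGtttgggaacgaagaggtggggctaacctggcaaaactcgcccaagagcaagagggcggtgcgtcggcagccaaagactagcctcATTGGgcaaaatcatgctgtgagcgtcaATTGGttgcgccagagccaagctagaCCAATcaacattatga
Sc5d: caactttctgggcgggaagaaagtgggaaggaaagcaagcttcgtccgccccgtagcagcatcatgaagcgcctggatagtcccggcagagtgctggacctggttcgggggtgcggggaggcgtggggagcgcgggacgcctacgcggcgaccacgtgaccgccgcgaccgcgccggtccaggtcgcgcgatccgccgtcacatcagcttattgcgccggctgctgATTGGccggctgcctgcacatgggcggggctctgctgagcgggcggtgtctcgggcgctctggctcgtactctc
An NF-Y box was found in 16 of the 17 matched synthesis enzymes (94.1%) and in 5 of 7 handling genes, against 41.1% of the 27025 genes in the promoter table. The Abcg5 box and the Abcg8 box 114 bases before its start are the same site, read from opposite strands. The sterol core was found in 1 of 24 members, Hmgcs1, at 137 bases before the start, against 1.44% of genes. The forkhead core was in 0 of 24, against 4.05%. A match describes the letters of this window and is no measure of binding. In these letters Sc5d carried 1 NF-Y box, 24 bases before its start.

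Of 15 genes that sense sterols or control their synthesis, averaged over genotypes, 4 fell after the fast (Insig1, Srebf1, Mlxipl and Erlin1) and 1 rose (Nr1h3), where 4.52% of all tested genes passed lower and 4.55% higher. Insig1, which holds back the sterol-regulated factors and is itself one of their targets, was at 160, 229 and 178 CPM in fasted against 721, 468 and 570 CPM in fed knockout livers. It was at 285, 193 and 177 CPM in fasted against 496, 536 and 408 CPM in fed control livers. No fasted library reached a fed one, and the log2 fold change was -1.38 (SE 0.15, adjusted p = 1.7e-04). Srebf1, whose product drives fatty acid synthesis, had one of -2.27 (SE 0.24, adjusted p = 2.7e-04), and Mlxipl, the carbohydrate-responsive factor, one of -0.73 (SE 0.10, adjusted p = 0.0010). Of 20 other sterol handling genes 4 fell and 1 rose, beside the same shares of all tested genes. Acss2, which supplies acetyl-CoA from acetate, had the smallest p, with a log2 fold change of -1.68 (SE 0.17, adjusted p = 1.6e-04). Of 12 genes in branches of the mevalonate pathway 1 fell (Pggt1b, by 0.26) and 0 rose, close to the 9.07% of all tested genes that passed in either direction. None of these 47 genes passed between genotypes or in the interaction.

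Srebf2, named after its values were seen, did not pass. It was at 49.5, 81.4 and 48.7 CPM in fasted against 60.3, 64.3 and 51.9 CPM in fed knockout livers, and at 84.5, 78.8 and 70.1 CPM in fasted against 49.6, 57.7 and 54.6 CPM in fed control livers. Fasted knockout replicate 2 stood near the fasted control libraries and above the other 2 of its group. The log2 fold change on fasting was 0.03 (SE 0.17, adjusted p = 0.97) in knockout and 0.53 (SE 0.17, adjusted p = 0.12) in control livers, with an interaction of -0.50 (SE 0.25, adjusted p = 0.72).

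Between genotypes no member passed by edgeR in fed livers, in fasted livers or averaged over both. By edgeR's quasi-likelihood test 0 of 31 members passed in fed livers, as did 0% of all tested genes. Unadjusted, 6 members had a p under 0.05 (Scarb1, Abca1, Abcg5, Lrp1, Ggps1 and Abcg8), where 6.12% of all tested genes did. Of the 31 members, these 6 were higher in every fed knockout library than in every fed control library, as were 6.3% of all tested genes. The 6 were picked by p in the same comparison, so their separation is no further evidence. The margin was narrow for Abcg5 and Abcg8. Their lowest fed knockout values were 114.0 and 158.8 CPM, and their highest fed control values 111 and 156.5 CPM. DESeq2 passed 0 members, with no adjusted p for 8, and limma passed 0. These comparisons share libraries with those of fasting above.

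In fed knockout livers Abca1 exceeded the fed control livers by 0.33 on the log2 scale (95% interval 0.09 to 0.57, adjusted p = 0.80). Scarb1 exceeded them by 0.28 (0.09 to 0.47, adjusted p = 0.78) and Abcg5 by 0.50 (0.10 to 0.90, adjusted p = 0.81). Without fed knockout replicate 1, which held the highest Abcg5 at 201 CPM, the Abcg5 difference was 0.22. Lrp1 was at 1387, 1060 and 1341 CPM in fed knockout against 993, 968 and 801 CPM in fed control livers, a difference of 0.46 (0.07 to 0.84, adjusted p = 0.81). In fasted livers it was at 991, 1464 and 1322 CPM in knockout against 1121, 838 and 1043 CPM in control, and the groups overlapped, with a difference of 0.33 (adjusted p = 0.60), or 0.21 without fasted knockout replicate 2.

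In fasted livers 0 members passed, where 0.0315% of all tested genes did, and 2 had an unadjusted p under 0.05, where 9.01% of all tested genes did; DESeq2 and limma passed 0. Abca1 was higher in knockout by 0.26 (95% interval 0.02 to 0.50, adjusted p = 0.54), with overlapping libraries. Hsd17b7, whose libraries overlapped as well, differed by -0.37 (-0.741 to -0.001, adjusted p = 0.55), or -0.25 without fasted knockout replicate 1. Averaged over both feeding states 0 members passed by edgeR, where 0.0126% of all tested genes did. There 6 had an unadjusted p under 0.05, where 7.91% of all tested genes did. All 3 efflux transporters were among these, at 0.29 for Abca1, 0.39 for Abcg5 and 0.38 for Abcg8, and Lrp1 was at 0.39. Without fed knockout replicate 1 the Abcg5 value was 0.25. DESeq2 passed 1 member, Abca1 (0.30, adjusted p = 0.046), and limma 0. Intervals for the enzymes were wide; that of Sqle in fed livers ran from -0.635 to 2.52.

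**Figure D5:**
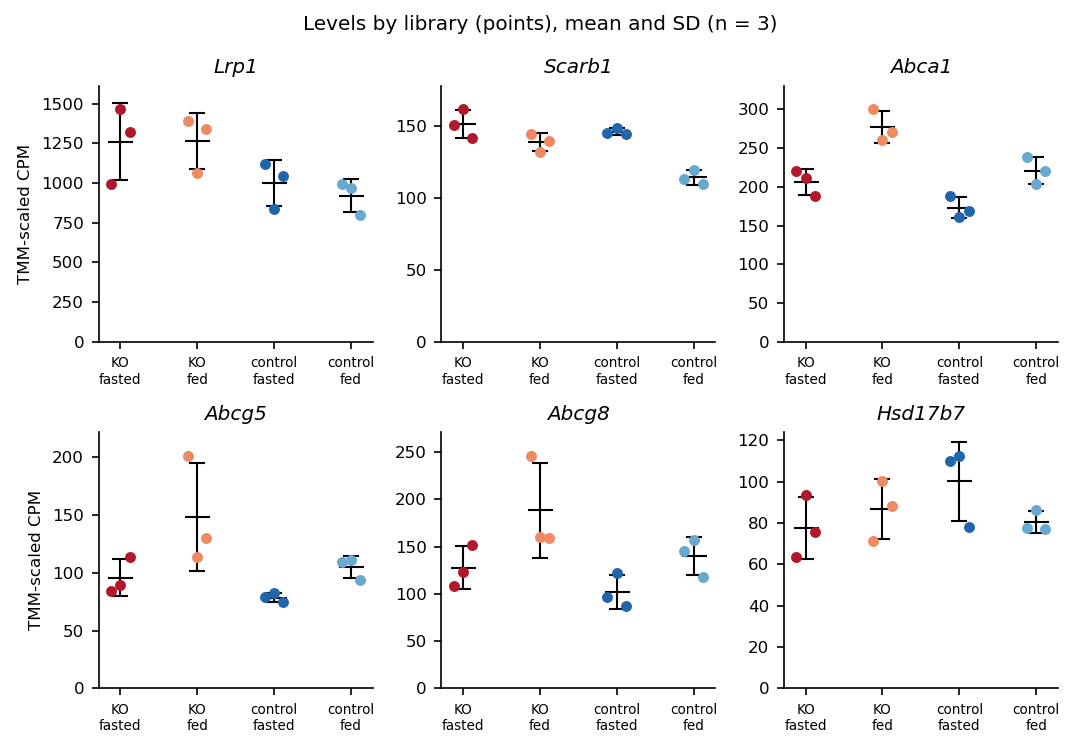
TMM-scaled CPM of 6 members with a small p between genotypes, with 1 point per library and bars for the group mean and SD (n = 3), knockout left of control. In fed livers the knockout libraries of Abca1, Abcg5, Scarb1 and Lrp1 lie above the control libraries, and no member passed the adjusted test.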

How the data were processed

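Per the labels' protocols, RNA was isolated from frozen liver and made into strand-specific poly(A) libraries. The submitters' processing notes name bcl2fastq 2.19, Trimmomatic 0.38, HISAT2 2.1.0, featureCounts 1.6.3, DESeq2 1.24.0 and build mm10; strand setting and treatment of multi-mapping reads were not given in the sources used here. Raw counts per gene were deposited by the authors, as was a second table in TPM. TPM served for levels per length and counts for the main tests.

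Counts of all 12 libraries (groups from the sample titles) entered 1 fit by edgeR 4.0.16 in R 4.3.3, after filterByExpr, with TMM factors and robust quasi-likelihood F tests. Tests were 2-sided, adjusted by Benjamini-Hochberg over 15862 genes in each comparison, with a threshold of 0.05 and no minimum fold. SE was derived as the absolute log2 fold change divided by the square root of the F statistic. The 95% intervals use this SE and a t quantile. The labels call the samples biological replicates. The members and lists were chosen with earlier results of these data known. Values in every library are given for members past the threshold in a comparison and, where fewer than 3 passed, for the 3 with the smallest p. Alternatives were RLE factors, other filters, DESeq2 1.42.0, limma 3.58.1 on log2 TPM with pseudocounts of 1 and 0.1, a fit restricted to the groups compared, a replicate block and leaving out each library in turn. The test of fasting in knockout livers was checked on simulated counts of 15862 genes. It recovered 50% of 100 genes changed 2-fold and 84% of 100 changed 4-fold. Of the genes called, 4.96% were unchanged ones. The changed genes were drawn at random, whereas the synthesis enzymes varied more between animals than most genes. Members that did not pass may therefore still differ.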

Additional observations from a re-analysis of the deposited data

How the results depend on the processing

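In the 31 pairs of gene and comparison where a member passed or was among the 3 with the smallest p, the fold change kept its direction under all alternatives run. Other members changed sign when single libraries were left out. The number of the 20 enzymes below 0 was 14 to 19 for fasting in control livers (16 with all data), 15 to 19 in the interaction (19 with all data) and 0 to 9 for knockout against control in fed livers (2 with all data). The count of members that passed for fasting in knockout livers, 3 with all data, was 1 with no filter on low counts, 5 with only the compared groups, 10 by DESeq2 and 6 with the replicate block. For fasting in control livers, 3 with all data, it was 7 by DESeq2. For knockout against control averaged over feeding states, 0 with all data, it was 1 by DESeq2 (Abca1). The cause of these shifts was not tested. Leaving out 1 library gave 1 to 6 members for fasting in knockout livers (6 without fasted knockout replicate 2; 1 without fasted control replicate 2, fasted knockout replicate 1 or 3, fed control replicate 1 or any fed knockout replicate), 1 to 4 in control livers (1 without fasted control replicate 2 or 3 or fed control replicate 2) and 8 to 15 averaged over genotypes (8 without fasted control replicate 2 or 3, fasted knockout replicate 1, fed control replicate 2 or fed knockout replicate 2). It gave 0 to 0 in the comparisons of genotype and in the interaction. Over all genes, DESeq2 called 794 against 393 by edgeR for fasting in knockout, 1188 against 657 in control livers, 60 against 1 in the interaction, and 33, 42 and 46 against 0, 5 and 2 between genotypes in fed livers, in fasted livers and averaged over both. Same-numbered libraries did not pair: of 18 pairs, the correlation of deviations ran from -0.324 to 0.165 and 3 were over 0.1. With the replicate block 9 members passed for fasting averaged over genotypes, against 13 without it. Beside left-out libraries, single genes lost their call on fasting with no filter on low counts (Fdps, Lss, Stard4 and Scarb1 averaged over genotypes, Pmvk and Dhcr7 in knockout, Scarb1 in control livers), with the replicate block (Abcg5, Abcg8, Lbr and Scarb1 averaged over genotypes, Scarb1 in control livers), by limma (Lbr and Scarb1), with only the compared groups (Dhcr7 in knockout, Scarb1 in control livers) and with RLE factors (Scarb1 in control livers).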

Other observations

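Gm48342, an antisense gene within Hmgcs1 chosen after its values were seen, had counts equal to 22.5% to 26.9% of those of Hmgcs1 in every library. Its log2 fold change on fasting, averaged over genotypes, was -0.52 (SE 0.23, adjusted p = 0.20 by edgeR's quasi-likelihood test), beside -0.54 (SE 0.22, adjusted p = 0.17) for Hmgcs1. Whether these counts come from a transcript of the opposite strand was not tested.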
